A study of Mus musculus with 22 samples.

Results

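Pim1, Pim2 and Pim3 are the 3 members of the Pim family of serine/threonine kinases. They were taken by gene symbol from the deposited count tables, where they are 3 of 24982 genes listed in each of 22 RNA-seq libraries. The libraries came from cells of the eosinophil lineage at 4 maturation stages, I to IV, isolated from bone marrow of wild-type C57BL6 mice by sorting. All mice received IL-33, a cytokine that induces eosinophilia, at 400 ng a day for 7 days by intraperitoneal injection. The compared groups differed in the antibody given afterwards, on 3 days beginning at the final IL-33 dose: 400 µg a day of either anti-IL5, which blocks the cytokine interleukin-5, or an isotype control antibody. Each antibody had 11 libraries, with 3 per stage and 2 at stage II. No group without IL-33 was among these libraries, so every value below describes IL-33-treated mice. The marrow had been depleted of cells carrying Ly6G, CD90.2, NK1.1 or CD45R, and the sort used stains for CD200R3, PIR-A/B, CD117, CD55, Siglec-F, F4/80 and CD29, with a stated purity of at least 95%. The labels do not say whether libraries with equal replicate numbers come from the same animal, so p-values measure the spread between these samples.

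Pim kinases are active once translated, with no activating phosphorylation step known to be required, so their activity is set largely by transcription and by the turnover of their short-lived mRNA and protein. Cytokine receptors that signal through JAK kinases and STAT5, among them the receptors for IL-5, IL-3 and GM-CSF, induce Pim1 and Pim2 in blood cells, and IL-5 is the main growth and survival factor of the eosinophil lineage. The kinases phosphorylate the proapoptotic protein Bad, the cell-cycle inhibitors p21 and p27, the transcription factor Myc and regulators of cap-dependent translation, and they overlap in targets with the AKT kinases.

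The 3 genes lie on separate chromosomes, all on the plus strand of mouse build GRCm38 (mm10). GENCODE M21 places Pim1 at chr17:29490753-29496112, Pim2 at chrX:7878262-7883432 and Pim3 at chr15:88862186-88865726, each with 6 exons in its longest protein-coding transcript. An antisense gene on the minus strand, Gm26885, covers 892 (33.1%) of the 2698 exon bases of Pim1. Gm26885 has no line of its own in the tables, and the library kit does not mark strand, so reads from it cannot be told apart from Pim1 reads in that stretch. No annotated gene overlaps the exons of Pim2 or Pim3. Because the 3 genes were lower together after anti-IL5 (below, on the mean over stages), the sequence upstream of each RefSeq transcript start is shown here, from 250 to 51 bases before the start, in build GRCm38.p6, plus strand, 5′ to 3′. Capitals mark matches on either strand to a loose NF-kB-type pattern, GGG and CC with any 5 bases between them, with overlapping matches joined. NF-kB is the factor family activated by the IL-33 receptor.
Pim1, chr17:29490535-29490734: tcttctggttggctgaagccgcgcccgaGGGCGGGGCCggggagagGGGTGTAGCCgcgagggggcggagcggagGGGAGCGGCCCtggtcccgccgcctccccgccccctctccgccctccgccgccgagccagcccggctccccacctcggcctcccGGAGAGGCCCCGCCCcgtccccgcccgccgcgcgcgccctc
Pim2, chrX:7878056-7878255: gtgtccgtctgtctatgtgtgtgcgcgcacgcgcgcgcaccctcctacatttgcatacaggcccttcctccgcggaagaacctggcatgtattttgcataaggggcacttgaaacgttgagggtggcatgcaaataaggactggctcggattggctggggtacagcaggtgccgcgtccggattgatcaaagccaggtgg
Pim3, chr15:88861944-88862143: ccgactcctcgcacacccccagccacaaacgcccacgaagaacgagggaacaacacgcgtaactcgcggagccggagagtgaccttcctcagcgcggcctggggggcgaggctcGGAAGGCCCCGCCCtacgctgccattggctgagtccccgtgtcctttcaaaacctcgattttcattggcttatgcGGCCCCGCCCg
In the full 250 bases before the start, this pattern matched 7 times for Pim1, 4 times for Pim3 and 0 times for Pim2, and 45.8% of 32851 RefSeq windows of that length held at least 1 match. The STAT5-type palindrome TTCNNNGAA, held by 7.02% of windows, the STAT6-type palindrome, with 4 bases between TTC and GAA and held by 5.85%, the E-box CACGTG, held by 6.02%, and TATAAA, held by 12.4%, matched in none of the 3 windows on either strand. A second RefSeq start inside Pim1 has a window of its own, not shown, with 1 match to CACGTG and 0 to the other patterns. The full 250-base windows of the 3 sequences shown were rich in G and C. The share was 82.4% for Pim1, 62% for Pim2 and 68% for Pim3, against a median of 52.4% over all windows. These full windows held 36, 22 and 31 CG dinucleotides, respectively, against a median of 6. A match is a description of these letters only, and no factor binding was measured.

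Libraries held 7161264 to 14781250 gene counts, and the members were well above the limit of detection in each of them: 3 counts correspond to 0.203 to 0.419 CPM (counts relative to the gene counts of the library), whereas the lowest member value was 10.9 CPM. CPM below are scaled by the trimmed mean of M-values (TMM) and are given per library in the order of the replicate numbers, followed by the group mean ± SD (n = 3, or n = 2 at stage II). All 10 eosinophil markers, among them Epx, Prg2 and Siglecf, were detected in every group. In bulk samples such as these, fewer cells of a type that carries a transcript and less of it per cell cannot be told apart.

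Pim1 had the widest range of the family, with its highest group mean 18.4 times its lowest. In isotype libraries Pim1 stood at 81.5, 71.1 and 52.3 CPM at stage I (mean 68.3 ± 14.8), and at 71.2 and 97.6 CPM at stage II (mean 84.4 ± 18.7). It stood at 118, 88 and 74.3 CPM at stage III (mean 93.5 ± 22.4), and at 321, 202 and 322 CPM at stage IV (mean 282 ± 69). The first 3 isotype stages overlapped one another, and all stage IV libraries lay above them. After anti-IL5 Pim1 was at 25.6, 10.9 and 11.1 CPM at stage I (mean 15.9 ± 8.4), and at 16.9 and 13.7 CPM at stage II (mean 15.3 ± 2.28). It was at 42.7, 40.6 and 41.6 CPM at stage III (mean 41.6 ± 1.09), and at 181, 163 and 98.8 CPM at stage IV (mean 148 ± 43.1). At all 4 stages every anti-IL5 library lay below every isotype library of that stage. Groups separate in this way in 28.5%, 33.8%, 26% and 15.8% of all tested genes at stages I to IV.

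Pim1 fell after anti-IL5 at stage I by 2.12 ± 0.30 on the log2 scale (SE; 4.34-fold lower, edgeR adjusted p = 0.000239), at stage II by 2.46 ± 0.37 (5.52-fold lower, edgeR adjusted p = 0.00161), and at stage III by 1.17 ± 0.29 (2.24-fold lower, edgeR adjusted p = 0.0169). At stage IV its log2 difference was -0.93 ± 0.28, which missed the threshold of 0.05 (edgeR adjusted p = 0.145, approximate 95% interval -1.48 to -0.39), though it passed with limma-voom (-0.95, adjusted p = 0.0271). Among 12387 tested genes, 1.82% were called lower at stage I, 1.19% at stage II, 5.05% at stage III and 0.864% at stage IV, so at stages I and II the Pim1 call was shared with few genes. By p-value, Pim1 ranked 28 at stage I and 11 at stage II. The stage III call rested on single libraries: it was lost without isotype replicate 1 (adjusted p = 0.0751), without anti-IL5 replicate 2 (0.0587) and without anti-IL5 replicate 3 (0.0692). The stage II call was lost when only the 4 stage II libraries were fitted (log2 difference -2.46, edgeR adjusted p = 0.147).

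Pim2 followed another course, with its highest level at stage III. In isotype libraries Pim2 stood at 41.8, 35.9 and 24.7 CPM at stage I (mean 34.1 ± 8.67), and at 106 and 61.6 CPM at stage II (mean 83.7 ± 31.3). It stood at 125, 117 and 87.1 CPM at stage III (mean 109.9 ± 20.2), and at 51.8, 110.4 and 69.3 CPM at stage IV (mean 77.2 ± 30.1). All stage I isotype libraries lay below the later stages, which overlapped with each other. After anti-IL5 Pim2 was at 37.3, 17.8 and 19.4 CPM at stage I (mean 24.8 ± 10.8), and at 59.8 and 38.4 CPM at stage II (mean 49.1 ± 15.1). It was at 64.4, 47.6 and 56.8 CPM at stage III (mean 56.3 ± 8.43), and at 29.2, 17.3 and 19.3 CPM at stage IV (mean 21.9 ± 6.4). Isotype and anti-IL5 libraries overlapped at stage I and did not overlap at stages II, III and IV. Of all tested genes, 33.8%, 26% and 15.8% were apart in this way at stages II, III and IV.

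Pim2 fell after anti-IL5 at stage IV, by 1.82 ± 0.32 on the log2 scale (3.53-fold lower, edgeR adjusted p = 0.00375, higher in 3 of 3 isotype than in any anti-IL5 library). It was the only member called at stage IV, the stage with the fewest genes called lower among the 4 (0.864%). Its log2 differences at the earlier stages were -0.47 ± 0.32 at stage I (edgeR adjusted p = 0.473), -0.77 ± 0.38 at stage II (0.387) and -0.97 ± 0.31 at stage III (0.0652). The stage III difference passed the threshold with DESeq2 (adjusted p = 0.0308), limma-voom (0.0336) and library totals (0.0425), but not by edgeR when any of the 6 stage III libraries was left out (adjusted p 0.0848 to 0.193). The stage IV call held in each fit that left out 1 library (highest adjusted p 0.0414).

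Pim3 had its lowest level at the stage where Pim2 was highest. In isotype libraries Pim3 stood at 90.0, 56.9 and 75.1 CPM at stage I (mean 74 ± 16.5), and at 59.3 and 46.4 CPM at stage II (mean 52.8 ± 9.1). It stood at 32.7, 25.9 and 47 CPM at stage III (mean 35.2 ± 10.8), and at 166, 52.6 and 183 CPM at stage IV (mean 134 ± 71). The stage IV values were not alike: replicate 2 lay at 52.6 CPM, below all isotype stage I libraries, and the other 2 lay above all other libraries of the series. After anti-IL5 Pim3 was at 60.5, 45.7 and 40.1 CPM at stage I (mean 48.8 ± 10.5), and at 33.9 and 38 CPM at stage II (mean 35.9 ± 2.92). It was at 24.8, 18.6 and 18.3 CPM at stage III (mean 20.6 ± 3.67), and at 112, 84 and 101 CPM at stage IV (mean 98.8 ± 13.9). Both antibody groups overlapped at stages I and IV and were apart at stages II and III, as were 33.8% and 26% of all tested genes.

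No single stage gave a call for Pim3. Its log2 differences were -0.60 ± 0.32 at stage I (edgeR adjusted p = 0.32), -0.55 ± 0.39 at stage II (0.594), -0.77 ± 0.33 at stage III (0.164) and -0.44 ± 0.31 at stage IV (0.777). The approximate 95% interval at stage IV, -1.05 to 0.17, includes 0.

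**Figure D1:**
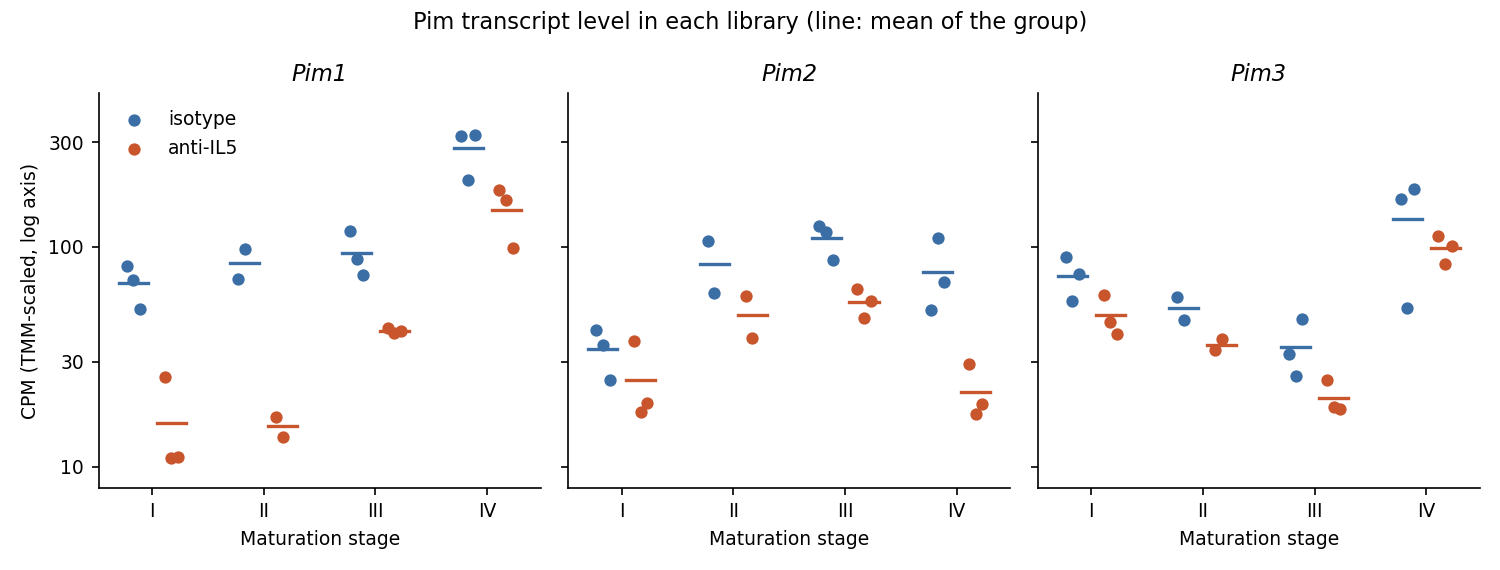
Level of Pim1, Pim2 and Pim3 in each library (CPM, log axis) by maturation stage, isotype in blue and anti-IL5 in orange, with a line at each group mean. Pim1 points of both antibodies are apart at every stage, Pim2 means peak at stage III, and Pim3 means are lowest at stage III.

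The isotype stage IV library of replicate 2 stood apart from its group for each member: it had the lowest Pim1 (202 CPM) and Pim3 (52.6 CPM) and the highest Pim2 (110.4 CPM) of the 3. Over all genes it did not stand apart, with a mean correlation to its group mates of 0.9775 against 0.9764 and 0.9759 for the other 2. Without it, the stage IV log2 differences were -1.12 for Pim1 (edgeR adjusted p = 0.116), -1.47 for Pim2 (0.0396) and -0.82 for Pim3 (0.19), so no member's call changed.

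On the mean over the 4 stages, all 3 members fell after anti-IL5, where 10.3% of tested genes were called lower. Pim1 fell by 1.67 ± 0.16 on the log2 scale (3.18-fold lower, edgeR adjusted p = 3.67e-07), Pim2 by 1.01 ± 0.17 (2.01-fold lower, edgeR adjusted p = 0.000235) and Pim3 by 0.59 ± 0.17 (1.51-fold lower, edgeR adjusted p = 0.0168). An exact permutation test with antibody labels exchanged within stages (2-sided, 48000 arrangements) gave p = 4.17e-05 for Pim1, the smallest it can give, p = 0.00025 for Pim2 and p = 0.00825 for Pim3. Like the edgeR fit, it treated libraries of different stages as independent. If equal replicate numbers mark the same animal, fewer arrangements would apply and these p-values could be too small. Within an antibody, the best match across stages I, III and IV had the same number in 36 of 36 comparisons. The Pim3 call was lost without isotype stage II replicate 1 (log2 difference -0.54, edgeR adjusted p = 0.0504) and with limma-voom (-0.53, adjusted p = 0.076). Over all genes the median log2 difference was near 0 at every stage, between -0.01 and 0.02.

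**Figure D2:**
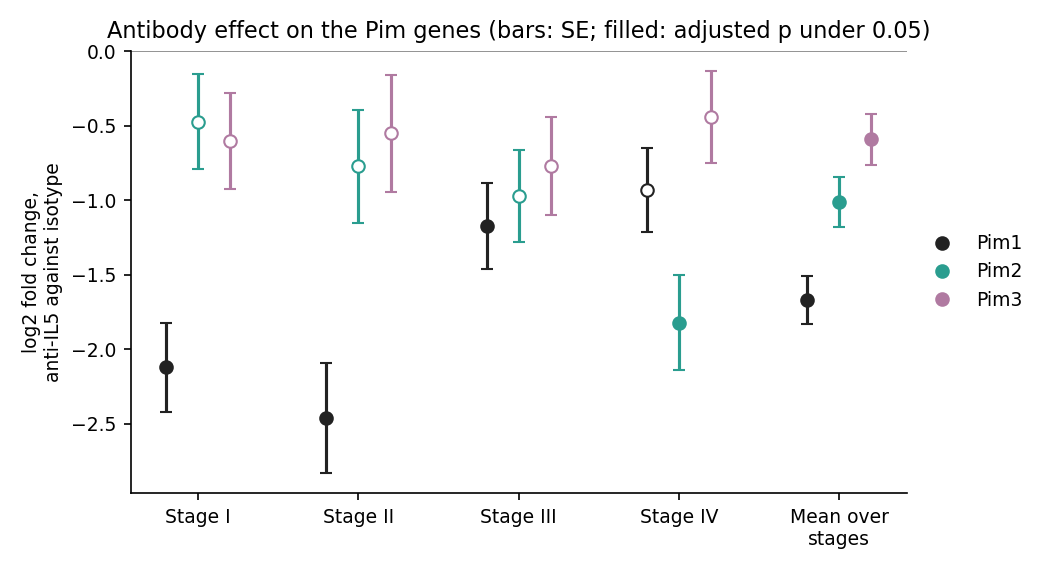
Log2 fold change of each Pim gene after anti-IL5 relative to the isotype control, by stage and for the mean of the stages, with bars of 1 SE and filled points where the edgeR adjusted p is under 0.05. All 15 points lie below 0; Pim1 is lowest at stages I and II, and Pim2 at stage IV.

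The size of the antibody effect was tested for differences among stages. The stage-by-antibody interaction, called in 1.07% of genes, was not called for Pim1 (edgeR adjusted p = 0.167), Pim2 (0.417) or Pim3 (1). For Pim1 it passed the threshold with DESeq2 (adjusted p = 0.038) and without anti-IL5 stage I replicate 1 (0.0403). Differences of the antibody effect between neighbouring stages were called by edgeR in 0 genes from stage I to II and from II to III (2.53% and 5.76% of genes at an unadjusted p under 0.05, and 3 and 14 genes by DESeq2) and in 0.638% of genes from III to IV. The Pim1 effect differed by 1.30 from stage II to stage III (edgeR adjusted p = 0.75), and the Pim2 effect by -0.85 from stage III to stage IV (0.521). Different calls at different stages are therefore not shown to be different effects for any single member.

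Levels of different genes were compared per kilobase of the longest protein-coding transcript (2698, 2045 and 2427 bases for Pim1, Pim2 and Pim3). By this measure the member with the highest group mean was not the same at each stage. In isotype libraries Pim3 made up 42.2% ± 7.37 of the summed Pim CPM per kb at stage I, Pim2 made up 42.8% ± 10.8 at stage II and 52.1% ± 4.72 at stage III, and Pim1 made up 52.6% ± 3.13 at stage IV. After anti-IL5 the same member had the highest mean at each stage, with 53.9% ± 6.18 for Pim3 at stage I, 53.3% ± 8.2 and 53.4% ± 2.4 for Pim2 at stages II and III, and 51% ± 8.38 for Pim1 at stage IV. Single libraries departed from their group: Pim1 led in isotype stage I replicate 2 (39.1%, against 34.8% for Pim3) and in isotype stage II replicate 2 (42.4%, against 35.2% for Pim2), and Pim3 led in anti-IL5 stage IV replicate 3 (47.4%, against 41.8% for Pim1). The share of Pim1 at stage I was 34.9% ± 4.03 in isotype and 14.8% ± 2.77 in anti-IL5 libraries. That of Pim2 at stage IV was 20.9% ± 13.1 and 10.1% ± 1.66. With the length of all annotated exons together in place of the transcript, an alternative chosen after the data were seen, the order of the group means was the same in all 8 groups.

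**Figure D3:**
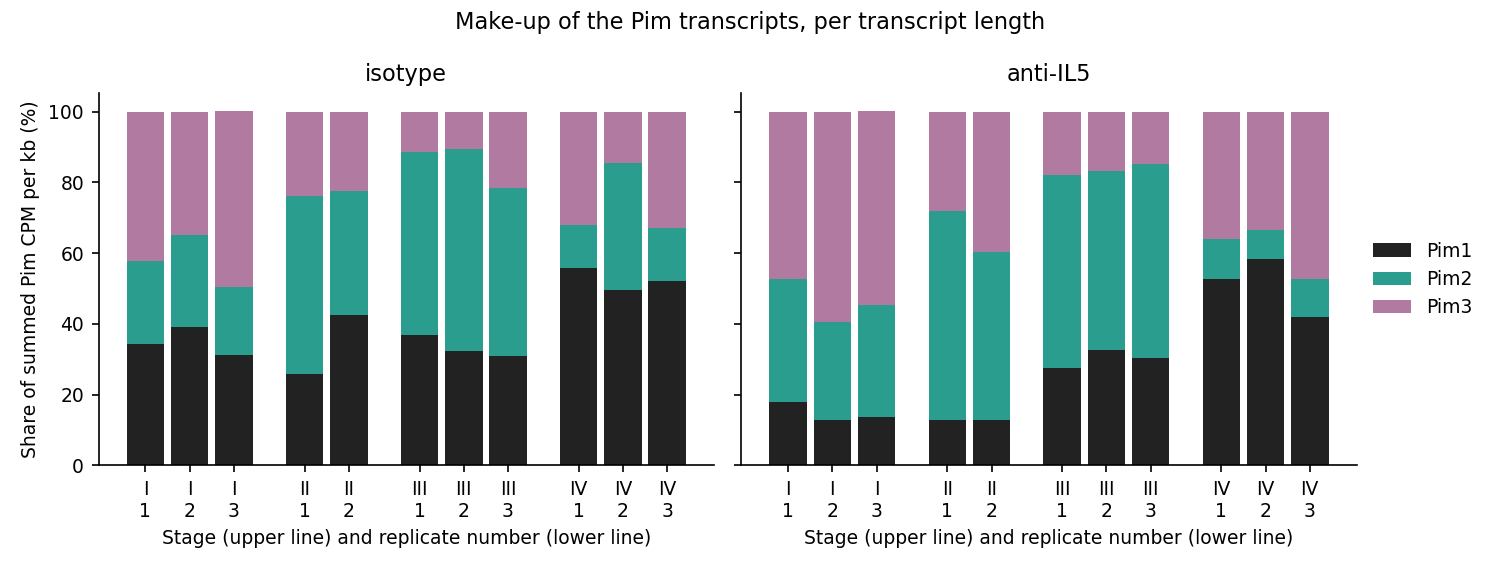
Share of each Pim gene in the summed Pim CPM per kb, 1 bar per library, isotype on the left and anti-IL5 on the right. The Pim1 part is 31.1% to 39.1% at stage I in isotype libraries and 12.8% to 18% in anti-IL5 libraries.

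The antibody effect was compared between members through their log2 ratio in each library, for 3 pairs with p-values adjusted over the 3. Relative to Pim3, Pim1 was lower after anti-IL5 by a mean of -1.14 on the log2 scale over stages (exact permutation p = 0.000875, adjusted 0.00263, lower in 11 of 11 anti-IL5 libraries than the isotype mean of their stage). Relative to Pim2, the Pim1 difference averaged -0.68 (exact permutation p = 0.0703, adjusted 0.105, 7 of 11 libraries), and the ratio of Pim2 to Pim3 differed by -0.46 (exact permutation p = 0.109, adjusted 0.109, 8 of 11 libraries). These averages cover unlike stages, and their tests likewise treated libraries of different stages as independent. The difference in the ratio of Pim1 to Pim2 was -1.68 at stage I, -1.69 at stage II, -0.18 at stage III and 0.83 at stage IV.

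At stage I the log2 ratio of Pim1 to Pim2 was 0.96, 0.98 and 1.08 in isotype libraries and -0.54, -0.69 and -0.79 in anti-IL5 libraries. The groups were far apart, with Pim1 above Pim2 in the first and below it in the second. At stage IV the ratio was 2.63, 0.87 and 2.21 in isotype libraries and 2.62, 3.22 and 2.34 in anti-IL5 libraries. There the groups overlapped, and Pim1 exceeded Pim2 in all 6 libraries.

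**Figure D4:**
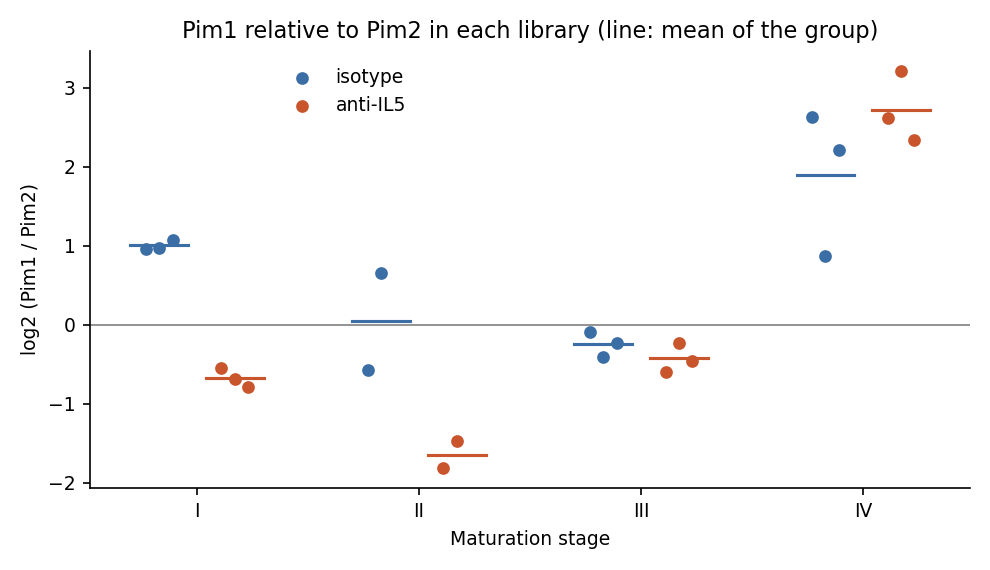
Log2 ratio of Pim1 to Pim2 (CPM with a prior count of 2) in each library by stage, isotype in blue and anti-IL5 in orange, with a line at each group mean and at a ratio of 0. Anti-IL5 libraries lie below isotype libraries at stages I and II and overlap them at stages III and IV.

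Maturation itself moved the members at different steps. From stage I to stage II, Pim2 rose in isotype libraries (log2 difference 1.29 ± 0.34, edgeR adjusted p = 0.0183, with 7.39% of genes called higher), though this call was lost without isotype stage I replicate 2 or 3 or stage II replicate 1 (adjusted p = 0.051, 0.0827 and 0.308). In anti-IL5 libraries the same step gave 0.99 ± 0.35 (edgeR adjusted p = 0.0662, with 7.27% of genes called higher). From stage II to stage III, Pim1 rose in anti-IL5 libraries (1.44 ± 0.34, edgeR adjusted p = 0.00204, with 19.8% of genes called higher), whereas the isotype step was 0.14 ± 0.31 (edgeR adjusted p = 0.756, with 19% of genes called higher). That the Pim1 steps differ between antibodies was not shown (the difference of 1.30 above).

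The last step, from stage III to stage IV, gave the most calls among the members. Pim1 rose in both arms, by 1.59 ± 0.28 in isotype libraries (edgeR adjusted p = 0.000162, with 14.8% of genes called higher) and by 1.82 ± 0.29 after anti-IL5 (edgeR adjusted p = 6.55e-05, with 10.4% of genes called higher). Pim3 rose in both arms, by 1.93 ± 0.33 (edgeR adjusted p = 8.56e-05) and 2.26 ± 0.33 (edgeR adjusted p = 2.57e-05). Pim2 fell by 1.36 ± 0.32 after anti-IL5 (edgeR adjusted p = 0.00317, with 13.4% of genes called lower). Its isotype step was -0.51 ± 0.31 (edgeR adjusted p = 0.214, with 18.8% of genes called lower), and the difference between both steps, -0.85, was not called. All calls of this step held in each fit that left out 1 library.

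From stage I to stage IV, where 32.3% of genes were called higher in isotype and 30.7% in anti-IL5 libraries, Pim1 rose by 2.04 ± 0.29 and 3.23 ± 0.31 (edgeR adjusted p = 2.13e-06 and 1.02e-08). Pim2 rose in isotype libraries (1.18 ± 0.31, edgeR adjusted p = 0.00239), while its anti-IL5 difference was -0.18 ± 0.32 (edgeR adjusted p = 0.644). Pim3 rose by 0.85 ± 0.31 and 1.02 ± 0.32 (edgeR adjusted p = 0.021 and 0.00808). The Pim3 rises depend on the scaling: with library totals alone, which move the median of all genes from -0.04 to -0.46 in isotype and from -0.06 to -0.48 in anti-IL5 libraries, they were 0.43 (edgeR adjusted p = 0.25) and 0.60 (0.113). Summed markers also moved along this path. The sum of the 10 eosinophil markers went from 43279 to 50565 CPM at stage I to 7080 to 8048 CPM at stage IV in isotype libraries. Not every marker fell: the mean of Il5ra, 1 of the 10, went from 244 to 439 CPM. The sum of the T and NK markers (7 of 8 in the tables) went from 879 to 1235 CPM to 4.32 to 6.21 CPM. Of these, Cd3e, Klrb1c, Gzma and Ncr1 were at 0 in all 4 isotype groups, and Cd3g at stages I and II, so this sum rests on few genes. The part of these markers in the changes of the Pim genes was not tested.

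Ordered by level, Pim1 ran from isotype stage IV through anti-IL5 stage IV, isotype stages III, II and I, and anti-IL5 stage III to anti-IL5 stages I and II. Neighbours in this order overlapped from anti-IL5 stage IV down to isotype stage I, and again between the last 2 groups. For Pim2, whose highest group mean was 5.01 times its lowest, all 7 neighbouring pairs in the order overlapped. For Pim3, with a ratio of 6.51, anti-IL5 stage I and stage II were apart, as were isotype stage III and anti-IL5 stage III, and the other neighbours overlapped.

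Other cell types' markers differed between antibodies at some stages where the Pim genes did. At stage III the 8 basophil and mast cell markers summed to 57 to 78.9 CPM after anti-IL5 and 302 to 793 CPM in isotype libraries, with 4 of 6 tested genes called lower (Mcpt8, Cpa3, Ms4a2 and Cyp11a1) and the mast cell proteases Mcpt4 and Tpsb2 at 0 in every group. At stage II this sum was 254 to 364 against 533 to 767 CPM, with Cyp11a1 called lower. At stage IV it was 30.4 to 58.3 against 62 to 89 CPM, with 0 of 6 tested genes called. The 12 neutrophil markers summed to 6885 to 7071 against 4198 to 5993 CPM at stage II and 5556 to 6743 against 3523 to 4457 CPM at stage IV, higher after anti-IL5 in each library, with none of the 12 at 0. Of the 12, Retnlg was called higher at stage II, S100a9 at stage III, and Ngp and S100a9 at stage IV. Over all genes, 0.565%, 1.32% and 0.186% were called higher at stages II, III and IV. At stage I, where Pim1 was 4.34-fold lower, the neutrophil sums overlapped (2818 to 10776 against 5325 to 7241 CPM), as did those of basophils and mast cells (830.3 to 1719 against 1246 to 1851 CPM). Single markers were nevertheless called at stage I, with Retnlg (neutrophil), Csf1r (monocyte), Cd79a (B lineage) and Ccr3 (eosinophil) higher and Cyp11a1 (basophil and mast cell) lower. The T and NK markers (7 of 8 in the tables, 2 tested) summed to 206 to 286 against 471 to 524 CPM at stage II and 27 to 30.4 against 94 to 234 CPM at stage III, where Nkg7 was called lower. Ncr1 was at 0 in every group. Cd3e, Cd3g, Klrb1c and Gzma were also at 0 in both stage II groups, so the stage II sums rest on few genes. The sum of the 6 megakaryocyte markers was lower after anti-IL5 at stage II (632 to 864 against 899 to 976 CPM) and stage IV (95.7 to 137 against 145 to 164 CPM), with 0 of 4 tested genes called. That of the 7 B lineage markers was higher at stage II (53 to 68.2 against 21.9 to 48.3 CPM), with 0 of 5 called. The sum of the 10 eosinophil markers was lower after anti-IL5 at stage III (19178 to 24792 against 34217 to 44006 CPM) and stage IV (5621 to 6643 against 7080 to 8048 CPM). Of the 10, 2 were called lower at stage III (Epx and Prg3) and 2 at stage IV (Epx and Prg2), beside 5.05% and 0.864% of all genes. Il5ra, 1 of the 10, had the higher mean after anti-IL5 at both stages (351 against 267 and 569 against 439 CPM, not called). The part of these markers in the Pim results was not tested.

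Upstream of the Pim genes, the IL-5 receptor and JAK-STAT list (16 genes, all tested) had 0 calls by edgeR at stages I, II and III (4, 5 and 7 genes at an unadjusted p under 0.05, 1, 0 and 1 calls by DESeq2 and 0 by limma-voom). On the mean over stages, where 8.6% of all genes were called higher, Csf2ra, Stat3, Stat6 and Ptpn6 were among the members that rose. Csf2rb, the shared signalling chain of the IL-5, IL-3 and GM-CSF receptors, was the only member called lower (-0.38 ± 0.10, edgeR adjusted p = 0.0111, and 0.0516 without isotype stage II replicate 2). The Csf2ra call was lost without anti-IL5 stage II replicate 1 (adjusted p = 0.0569), and that of Ptpn6 without any of 8 single libraries. Il5ra, the IL-5-binding chain of the receptor, named here outside the rule for genes, was at 244 ± 7.93 CPM in isotype and 279 ± 39.9 CPM in anti-IL5 libraries at stage I, and at 439 ± 71.7 and 569 ± 40.9 CPM at stage IV. It was not called at any stage (edgeR adjusted p from 0.214 to 0.801). The list's median log2 difference ran from 0.05 to 0.31 over stages. The NF-kB and IL-33 response list (13 genes) had 1 call at a single stage, Birc3, an inhibitor of apoptosis (0.70 ± 0.21 at stage III, edgeR adjusted p = 0.0456), which was lost without any of 4 stage III libraries. By edgeR the list had 0 at stages I, II and IV (3, 1 and 3 at an unadjusted p under 0.05, 1, 1 and 0 by DESeq2 and 0 by limma-voom). On the mean over stages 2 of the 13 were called, both higher, beside the 8.6% of all genes. They were Birc3 (0.65 ± 0.11, edgeR adjusted p = 0.000348), whose call held in all 28 alternatives, and Nfkbia (0.32 ± 0.11, edgeR adjusted p = 0.0466), whose call was lost in 18 of 28.

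The list of STAT5 targets and feedback inhibitors held 18 genes, all tested. STAT5, the factor that also drives Pim1 and Pim2, is known to induce most of them and to repress Bcl6. Of the 18, 2 fell and 2 rose at stage I, 4 fell and 1 rose at stage II, 6 fell and 1 rose at stage III, and 7 fell and 0 rose at stage IV. On the mean over stages 8 fell and 3 rose. Over all genes, 2.61%, 0.565%, 1.32% and 0.186% were called higher at stages I to IV, beside the lower shares given above. The list's median log2 differences were -0.48, -0.44, -0.53 and -1.06. They were -0.48, -0.44, -0.53 and -1.13 when a gene with 0 counts in a group was set to the bound that 3 counts allow, or left out with 0 counts in both. The feedback inhibitor Socs2 fell at every stage, from 499 to 12 counts summed over the libraries at stage I and from 220 to 2 at stage II. Socs1, another feedback inhibitor, fell at stage I (-1.88 ± 0.30), stage III (-1.85 ± 0.30) and stage IV (-1.76 ± 0.29, edgeR adjusted p = 0.00211). Cish, the third of these inhibitors, fell at stage IV from 161 ± 47.6 to 34 ± 10.1 CPM (edgeR adjusted p = 0.00153), and Xbp1, a factor of the secretory pathway, fell at stage IV by 1.46 ± 0.14 (edgeR adjusted p = 5.94e-06).

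Of the 3 survival genes of the BCL2 family in this list, Mcl1 was not called at any stage (edgeR adjusted p from 0.674 to 0.828). Bcl2 fell at stage IV (8.61 ± 3.31 to 1.84 ± 0.857 CPM, edgeR adjusted p = 0.00386, and 0.119 with limma-voom), and Bcl2l1, which encodes Bcl-xL, fell at stage III (edgeR adjusted p = 0.0421) and stage IV (81 ± 16 to 37 ± 4.97 CPM, 0.0175). Both Bcl2l1 calls were lost without any of several single libraries. Myc, a substrate of the Pim kinases as well as a target of STAT5, fell at stage II (134 ± 3.52 to 27.7 ± 8.13 CPM, edgeR adjusted p = 0.00972) and stage III (19 ± 4.7 to 3.23 ± 1.66 CPM, 0.000594). Bcl6, a repressor, rose at stages I, II and III, with 4.84 ± 1.95 against 0.84 ± 0.75 CPM at stage I (edgeR adjusted p = 0.00538). Id1 rose at stage I (1.83 ± 0.27, edgeR adjusted p = 0.000365) and fell at stage IV (-1.45 ± 0.27, edgeR adjusted p = 0.00542). Of 35 calls of listed genes at single stages, counting all lists, 16 held in every fit that left out 1 library, among them those of Socs2 at all stages, Bcl6 and Id1 at stage I, Myc at stage III and Cish and Bcl2 at stage IV. Those of Myc at stage II, Bcl6 at stages II and III and Id1 at stage IV did not.

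**Figure D5:**
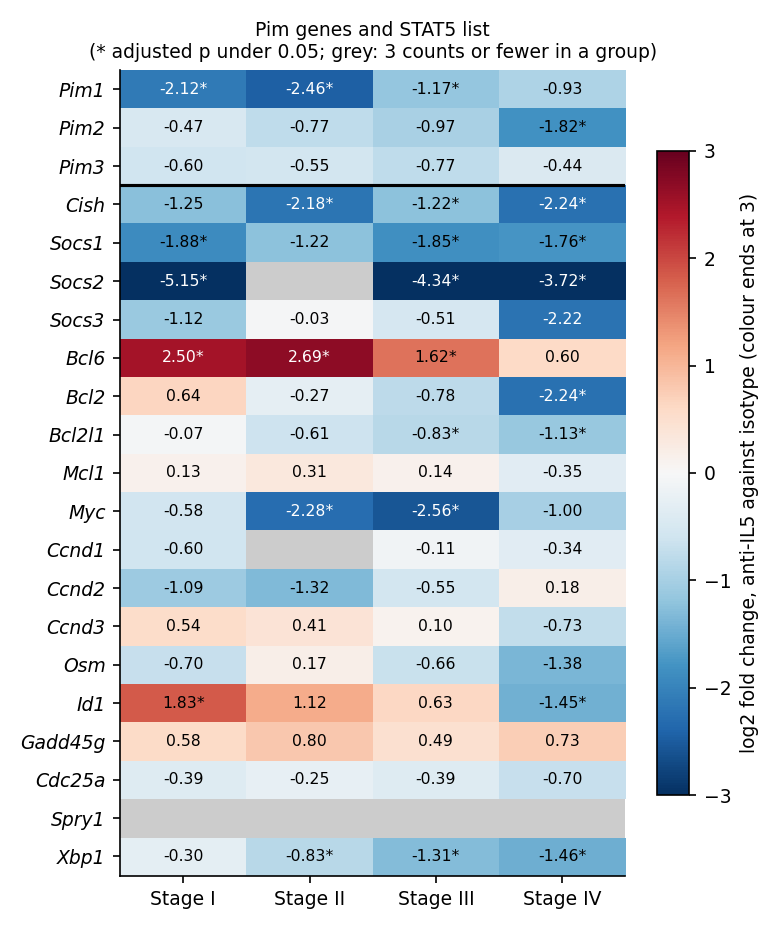
Log2 fold change, anti-IL5 against isotype, of the Pim genes (above the line) and of the 18 genes in the STAT5 list at each stage, with asterisks at an edgeR adjusted p under 0.05 and grey where a group had 3 counts or fewer. Socs2 is marked at each stage where a value is shown, Pim1 at stages I to III and Pim2 at stage IV.

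Among the transcripts of Pim kinase substrates (22 genes, 21 tested), 1, 0, 2 and 1 were called at stages I to IV and 6 on the mean over stages. Over all genes the shares called in either direction were 4.42%, 1.75%, 6.37% and 1.05% at stages I to IV and 18.9% on the mean. The 6 were Foxo1, Map3k5 and Cxcr4, which rose, and Cdc25a, Runx1 and Snd1, which fell. The calls of Foxo1, Map3k5, Cdc25a and Runx1 on the mean were each lost without 1 or more single stage II libraries. Cxcr4, a chemokine receptor that holds cells in the marrow, rose at stage I (62.3 ± 22.2 against 25.2 ± 2.72 CPM, edgeR adjusted p = 0.0236, lost without any of 4 stage I libraries). At stage III Runx1, a haematopoietic transcription factor, fell from 67 ± 20.9 to 27.9 ± 5.42 CPM (edgeR adjusted p = 0.00139), and Snd1, a transcriptional coactivator, fell by 1.23 ± 0.20 on the log2 scale (edgeR adjusted p = 0.000917). At stage IV Cdkn1a, which encodes p21, fell from 130.3 ± 75.3 to 20.7 ± 8.77 CPM (edgeR adjusted p = 0.0226, lost without isotype replicate 3, anti-IL5 replicate 2 or anti-IL5 replicate 3). No substrate was called by edgeR at stage II (4 at an unadjusted p under 0.05, 1 call by DESeq2 and 0 by limma-voom). The list's median log2 difference lay between -0.01 and 0.20 over stages. Bad, the proapoptotic substrate, was at 47.7 ± 9.9 CPM in isotype and 54.7 ± 3.86 CPM in anti-IL5 libraries at stage I and had no call at any stage (edgeR adjusted p from 0.734 to 1).

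Downstream translation genes (12) had 1, 1, 2 and 0 calls at stages I to IV, all lower, and 4 on the mean over stages, beside the shares of all genes just given. Of those 4, Eif4e, Eif4a1 and Eif4g1 fell, and Pdcd4, an inhibitor of Eif4a1, rose (0.51 ± 0.16, edgeR adjusted p = 0.0249, and 0.0523 without anti-IL5 stage I replicate 3). Eif4a1, the RNA helicase of the cap-binding complex, was called at stages I, II and III, with 681 ± 37.9 against 962 ± 101 CPM at stage I (edgeR adjusted p = 0.0211), and Eif4e, the cap-binding protein, at stage III (59.6 ± 13.3 against 91.7 ± 11.3 CPM, edgeR adjusted p = 0.0271). The 14 genes of the parallel AKT, SGK and PDK1 survival kinases had 0 calls at every stage by edgeR (2, 0, 2 and 0 at an unadjusted p under 0.05, 1 call by DESeq2 at stage I and 0 by limma-voom), and Pik3r5, a regulatory subunit of PI3-kinase gamma, rose on the mean over stages (0.57 ± 0.17, edgeR adjusted p = 0.0235, lost without any of 3 single libraries). Of 6 protein partners that set Pim stability, the chaperone gene Hsp90ab1 fell at stage I (489 ± 15 against 803 ± 96.2 CPM, edgeR adjusted p = 0.0143) and stage II (258 ± 40.9 against 520.2 ± 77.3 CPM, 0.0138). Each of these Eif4a1, Eif4e and Hsp90ab1 calls at single stages was lost without 1 or more single libraries.

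Genes most like each member were named by the Pearson correlation of log2 CPM over all 22 libraries, among 9120 genes with a group mean of at least 10 CPM. These points share stage and antibody groups, so the correlations describe a pattern and carry no test. Pim1 was most like E2f4 (r = 0.897), Ngly1 (0.891), C4a (0.883), Hes1 (0.880), Bcl2a1a (0.880) and F2r (0.879). Bcl2a1a, a survival gene of the BCL2 family with near-identical copies between which reads may split, was at 108 ± 9.93 CPM in isotype and 16.8 ± 5.51 CPM in anti-IL5 libraries at stage IV. C4a also has a close copy, which makes its value uncertain. Hes1, a transcription factor of the Notch pathway, rose to 21.8 ± 9.56 and 19.3 ± 9.77 CPM at stage IV from no more than 3.89 CPM on average earlier.

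Pim2 was most like Bri3bp (r = 0.887), Sema4a (0.863), Adora2b (0.860), Cfp (0.843), Napsa (0.828) and Neu1 (0.812). Adora2b, an adenosine receptor, was at 104 ± 6.63 and 110.1 ± 28.5 CPM at stages III and IV in isotype libraries and at 5.1 ± 3.5 and 2.73 ± 2.81 CPM after anti-IL5. Sema4a, a semaphorin, was at 351 ± 76.5 CPM in isotype and 128 ± 10.8 CPM in anti-IL5 libraries at stage IV. Cfp encodes properdin of the complement system, and Neu1 a lysosomal sialidase.

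Pim3 was most like Spr (r = 0.851), Mrm1 (0.836), Taf5l (0.835), Slc8a1 (0.835), Klhdc2 (0.833) and Uap1 (0.832). Spr, an enzyme of tetrahydrobiopterin synthesis, was at 19.9 ± 3.69, 10.0 ± 0.233, 5.11 ± 0.268 and 19.8 ± 3.07 CPM over the 4 isotype stages, low at stage III like Pim3. With Spearman's rho in place of Pearson's r, 2 of the 6 genes stayed among the first 6 for Pim1, 5 for Pim2 and 4 for Pim3. Among the members r was 0.335 between Pim1 and Pim2, 0.583 between Pim1 and Pim3 and -0.285 between Pim2 and Pim3.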

How the data were processed

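Libraries were prepared by Nextera XT from cDNA of the SMART-Seq v4 kit, which marks no strand, after 17 cycles of amplification, per the labels' protocols. The deposited tables hold raw counts per gene symbol, made by the authors with STAR 2.6.1a and build mm10 named, and DESeq2 named without its role, per the submitters' processing notes. How reads were counted, with which annotation and strand option, is not given in the sources used. Library sizes left out the no-feature line (12.7% to 22.1% of counts) and the ambiguous line (1.86% to 2.39%). Within each group, no library was a copy of another, and libraries of different groups were not compared for this. Counting error alone is covered by the floor of 3 counts.

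The members, gene lists and tests were chosen with earlier results of these data known. The quasi-likelihood test of edgeR 4.0.16 in R 4.3.3 was fitted on all 22 libraries together, with 8 groups and TMM scaling, over the 12387 of 16619 detected genes that passed filterByExpr. Groups of 2 or 3 libraries thus share the spread of all groups. A call needed a p under 0.05 after Benjamini-Hochberg adjustment over all tested genes. The SE is the log2 fold change divided by the square root of F, and intervals are approximate. Log2 CPM for ratios and correlations used a prior count of 2. From each list, up to 4 genes of smallest adjusted p on the mean over stages were named among those called in any antibody comparison. Listed genes named beyond these (Bcl2, Bcl2l1, Mcl1, Map3k5, Myc, Bcl6, Id1, Runx1, Cdkn1a, Stat3, Ptpn6, Bad and Il5ra) were chosen after their values were seen. Gene models came from GENCODE M21 and promoters from RefSeq. The fitting steps were tested on simulated data. Some results are not reported here. Alternatives were relative log expression scaling, library totals, no filter, DESeq2 1.42.0, limma-voom 3.58.1, a replicate block, fits of only the compared libraries and leaving out each library.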

Additional observations from a re-analysis of the deposited data

Results flagged for a closer look

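The antibody effect on the log2 ratio of Pim1 to Pim2 had opposite signs at stages I and IV. It was -1.68 at stage I, where Pim1 was lower relative to Pim2 after anti-IL5, and 0.83 at stage IV, a difference of 2.51. An exact permutation test with antibody labels exchanged within both stages (2-sided, 400 arrangements) gave p = 0.015, adjusted to 0.045 over 3 pairs of members, where the smallest p it can give is 0.005. The other pairs did not pass, with 0.90 for Pim1 to Pim3 (exact permutation p = 0.355) and -1.61 for Pim2 to Pim3 (exact permutation p = 0.08, adjusted 0.12). Exchanging the labels assumes no antibody effect at either stage, so a shift at stage I alone can give a small p. The test therefore cannot show that the effects at both stages differ from each other. The comparison of these stages was chosen after the values were seen, and the adjustment does not cover that choice. The exchange also treated libraries of both stages as independent, which the labels do not settle. Leaving out each of the 12 libraries in turn gave differences from 1.99 to 2.87, with exact permutation p from 0.005 to 0.035 before adjustment. After adjustment over the 3 pairs the call was lost in 3 of these 12 exact permutation tests: without isotype stage IV replicate 2 (adjusted p = 0.075), anti-IL5 stage IV replicate 1 (0.06) and anti-IL5 stage IV replicate 2 (0.105). The lowest difference, 1.99, came without isotype stage IV replicate 2, the library with the lowest ratio of its group (0.87).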

How the results depend on the processing

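Of the 384 values of members recomputed under settings other than leaving out a library, 356 kept their direction and their side of the threshold, as did 470 of 504 with 1 library left out. The calls for Pim1 at stage I and for Pim1 and Pim2 on the mean over stages held in all. Depth did not limit the members, but groups of 2 or 3 libraries limit every test, and the lone library left at stage II when 1 was removed is assumed to vary like the other groups. The cause of the changes below was not tested, except that fits of only the compared libraries had fewer samples.

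Pim2 at stage III passed with library totals (-1.03), DESeq2 (-0.96), limma-voom (-0.96) and the compared libraries alone (-0.95). Pim1 at stage IV passed with limma-voom (-0.95), and its interaction with DESeq2 (adjusted p = 0.038). Calls were lost for Pim1 at stage II with the compared libraries alone (-2.46) and for Pim3 on the mean over stages with limma-voom (-0.53). For Pim3 from stage I to IV in isotype libraries the call was lost with library totals (0.43), no filter (0.83), limma-voom (0.66) and the compared libraries alone (0.82), and after anti-IL5 with library totals (0.60). Pim3 from stage II to III after anti-IL5 passed with library totals (-1.02), DESeq2 (-0.88) and the compared libraries alone (-0.84), and Pim2 from stage I to II after anti-IL5 with DESeq2 (0.98). Uncalled steps changed sign for Pim1 from stage II to III in isotype libraries (-0.06 with library totals), Pim2 from stage II to III after anti-IL5 (-0.001 with library totals) and Pim1 from stage I to II after anti-IL5 (0.09 with limma-voom).

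With 1 library left out, ranges that include a changed call were -1.31 to -0.96 for Pim1 at stage III, -0.69 to -0.52 for Pim3 on the mean over stages, 0.84 to 1.63 for Pim2 from stage I to II and 0.56 to 1.24 for Pim3 from stage I to IV in isotype libraries, 0.64 to 1.40 for Pim2 from stage I to II after anti-IL5, and adjusted p 0.0403 to 0.292 for the Pim1 interaction. The Pim3 call from stage I to IV in isotype libraries was lost without stage I replicate 2 (0.70) or stage IV replicate 1 (0.67) or 3 (0.56). The ratio of Pim1 to Pim2 ranged from -0.83 to -0.53 and passed without isotype stage IV replicate 2 (-0.81), and that of Pim2 to Pim3 from -0.59 to -0.25, passing without isotype stage III replicate 3 (-0.56). The stage IV minus stage I difference for Pim1 to Pim2 ranged from 1.99 to 2.87 and lost its call in 3 of 12 fits. Ranges that include a change of sign, all of uncalled values, were -0.56 to 0.17 (Pim1), -0.65 to 0.18 (Pim2) and -0.11 to 0.28 (Pim3) for the antibody effect at stage II minus stage I, -0.66 to 0.15 (Pim2) and -0.44 to 0.04 (Pim3) for stage III minus stage II, and -0.05 to 0.63 (Pim3) for stage IV minus stage III. For steps they were -0.06 to 0.39 (Pim1, stage II to III, isotype), -0.25 to 0.47 (Pim1, stage I to II, anti-IL5), -0.09 to 0.55 (Pim2, stage II to III, anti-IL5) and -0.44 to 0.23 (Pim2, stage I to IV, anti-IL5), and -0.43 to 0.02 for Il5ra at stage II.

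Within an antibody, equal replicate numbers tended to match across stages. At stages I, III and IV the best match had the same number in 36 of 36 comparisons. Deviations from group means correlated at 0.02 to 0.21 for equal numbers (median 0.11, 16 of 30 pairs over 0.1). For different numbers the median was -0.05, with 2 of 60 over 0.1. Between antibodies at 1 stage, equal numbers gave 0.01 to 0.34 (2 of 11 over 0.1), so a match there is less clear. The main fits ignored these numbers. With the number as a block shared by both antibodies, Pim2 at stage III (-0.95), Pim1 at stage IV (-0.97) and Pim3 from stage II to III after anti-IL5 (-0.91) passed. With a block within each antibody, Pim3 from stage II to III passed in isotype (-0.81) and anti-IL5 libraries (-0.77), as did Pim2 from stage I to II after anti-IL5 (0.96), and the uncalled Pim3 differences at stage II minus I (-0.18) and III minus II (0.04) changed sign.

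Counts of genes called by antibody were 548, 217, 789 and 130 at stages I to IV, and 964, 467, 1285 and 257 with DESeq2. They were 1123, 1 and 496 at stages I to III with the compared libraries alone, and 205 at stage IV with limma-voom. With 1 library left out they ranged from 33.6% of the count (without isotype replicate 2) to 465 genes at stage I, from 17.5% (without isotype replicate 2) to 430 at stage II, from 39% (without anti-IL5 replicate 3) to 854 at stage III and from 52.3% (without isotype replicate 2) to 116 at stage IV. The interaction had 133 (503 with DESeq2, 241 with limma-voom, 215 with the block within antibody, 50 to 220 with 1 library left out). Neighbouring-stage differences had 0, 0 and 79 by edgeR (3, 14 and 255 with DESeq2, and 27 for the last with limma-voom). Stage steps had 1319 from I to II in isotype libraries (687 with the compared libraries alone, 386 to 1677 with 1 left out), 4591 from II to III (2951 alone) and 1539 from I to II after anti-IL5 (509 to 1495 with 1 left out). Library totals moved the share of called genes that were higher in isotype libraries from 69.4% to 53.6% for stage I to II, from 51.3% to 37.1% for II to III and from 48.8% to 35.2% for I to IV. After anti-IL5 it moved from 58.5% to 39.4% for stage I to II, from 50.1% to 35.2% for II to III and from 48.3% to 33% for I to IV.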
